A study of Mus musculus with 46 samples.

Results

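The skeletal muscle sarcomere and the machinery that couples its excitation to contraction were examined through 39 named mouse genes in synovial sarcoma (SyS) tumors. The genes were listed by name with earlier results of these data known, in which muscle transcripts were the largest source of variance. All of them had a row both in the hSS2 table (39 of 56980 genes) and in the hSS1 table (39 of 56941 genes). By role they comprised 11 thin-filament genes, 12 thick-filament genes, 9 genes of the Z-disc and titin, 6 genes of excitation-contraction coupling and calcium handling, and Ckm, the muscle creatine kinase. By fiber type, 14 were fast-type genes, 7 slow-type and 2 embryonic or perinatal, 3 were tropomyosins that are also made outside skeletal muscle, and 13 were assigned to no isoform class.

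RNA was sequenced from whole fresh-frozen tumors of 46 mice, so that a smaller number of muscle cells and less RNA per muscle cell could not be told apart in any of these libraries. TATCre protein, a Cre recombinase that enters cells by itself and is not restricted to a cell type, was injected into the hindlimb of mice at 8 days of age, and tumors were taken when the mice became morbid, at an age that differed between mice. All mice carried a conditional human fusion gene at the Rosa26 locus that Cre turns on, either SS18::SSX2 (hSS2, called SSM2 in the labels) or SS18::SSX1 (hSS1). The hSS2 tumors were 13 controls with no floxed remodeler gene, 8 with floxed Pbrm1 (Pbrm1-fl; a PBAF subunit), 8 with floxed Arid1a and 8 with floxed Arid1b (Arid1a-fl and Arid1b-fl; subunits of canonical BAF), and the hSS1 tumors were 5 controls and 4 Pbrm1-fl.

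Total counts per library ran from 10.1 to 21.3 M, and levels are given as CPM, counts for each 1000000 scaled counts. A gene without a read could still be present at up to 0.140 to 0.297 CPM, the level of 3 counts in these libraries. The targeted genes checked the labels: Pbrm1 was lower in Pbrm1-fl hSS2 tumors (log2 fold change −1.27, SE 0.0879, adjusted p = 4.2e-12) and Arid1a in Arid1a-fl tumors (−0.95, adjusted p = 7.0e-05), whereas Arid1b in Arid1b-fl tumors (−0.80, adjusted p = 0.145) and Pbrm1 in hSS1 Pbrm1-fl tumors (−0.75, adjusted p = 0.193) did not pass the test. The library labelled hSS2 control replicate 9 had 238.6 CPM of Arid1a, inside the Arid1a-fl range of 229.6 to 280 CPM and below the 433.1 to 592.1 CPM of the other 12 controls. The Arid1b-fl tumors overlapped the controls in Arid1b: replicates 2, 4 and 7 had 292.3, 353.6 and 240.3 CPM, inside the control range of 228.9 to 676.7 CPM, while the other 5 lay below it. With only those 5 tumors, a choice made after seeing the data, the median change over the 39 genes in Arid1b-fl was 0.64 in place of 0.24, and 0 genes were called by edgeR. Without control replicate 9 the median change over the 39 genes was −1.07 rather than −0.93 in Pbrm1-fl, −1.57 rather than −1.47 in Arid1a-fl and 0.12 rather than 0.24 in Arid1b-fl tumors. The ranges of mouse numbers in the labels differed between groups, with all hSS2 Pbrm1-fl mice at or above 2000 and all Arid1a-fl mice below 1000, while the hSS2 controls were spread over the whole span.

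In a muscle fiber, myosin thick filaments pull on actin thin filaments that are anchored in Z-discs, and titin spans from the Z-disc to the middle of the sarcomere. Contraction starts when depolarization is sensed by a calcium channel of the membrane tubules (Cacna1s), which opens the ryanodine receptor (Ryr1) of the sarcoplasmic reticulum. The calcium released binds troponin C, and tropomyosin then moves on the thin filament and exposes actin to myosin. Fast, slow, embryonic and perinatal fibers build the same apparatus from different genes, of which the myosin heavy chains (Myh4, Myh1 and Myh2 in fast fibers, Myh7 in slow fibers, Myh3 and Myh8 in developing and regenerating fibers) are the usual markers.

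The promoter windows of 6 genes are shown because the levels described below separate them: Ckm, Acta1 and Myh4 represent the genes that varied most, Myh7 the slow program, and Mybpc1 and Tpm3 the genes that followed the others least. Each sequence is the 250 bases before the annotated start in RefSeq on GRCm38.p6, read 5′ to 3′ on the gene's strand, for Ckm chr7:19410844-19411093 (+), Acta1 chr8:123894776-123895025 (−), Myh4 chr11:67237562-67237811 (+), Myh7 chr14:54994627-54994876 (−), Mybpc1 chr10:88605153-88605402 (−) and Tpm3 chr3:90072401-90072650 (+). Capitals mark matches on either strand to the E-box CANNTG (bound by myogenic factors such as MyoD), the CArG box (serum response factor), the MEF2 site and the TATA sequence TATAAA.
Ckm: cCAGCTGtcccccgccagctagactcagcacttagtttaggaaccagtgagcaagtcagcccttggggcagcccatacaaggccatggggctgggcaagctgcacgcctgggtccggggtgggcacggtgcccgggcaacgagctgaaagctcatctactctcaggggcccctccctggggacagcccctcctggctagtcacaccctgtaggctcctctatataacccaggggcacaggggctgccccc
Acta1: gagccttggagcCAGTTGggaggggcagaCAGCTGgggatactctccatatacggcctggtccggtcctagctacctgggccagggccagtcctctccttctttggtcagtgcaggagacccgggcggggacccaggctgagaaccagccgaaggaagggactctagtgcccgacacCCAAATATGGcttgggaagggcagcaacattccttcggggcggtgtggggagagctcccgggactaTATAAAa
Myh4: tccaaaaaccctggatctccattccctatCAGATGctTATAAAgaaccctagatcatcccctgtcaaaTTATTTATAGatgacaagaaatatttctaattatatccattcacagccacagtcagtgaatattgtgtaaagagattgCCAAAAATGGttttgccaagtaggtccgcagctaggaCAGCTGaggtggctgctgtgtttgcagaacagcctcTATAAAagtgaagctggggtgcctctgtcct
Myh7: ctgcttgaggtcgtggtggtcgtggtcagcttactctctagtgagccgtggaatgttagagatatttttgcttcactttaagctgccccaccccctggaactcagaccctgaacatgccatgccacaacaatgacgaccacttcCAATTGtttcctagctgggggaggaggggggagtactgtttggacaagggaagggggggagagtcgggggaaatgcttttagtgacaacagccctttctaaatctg
Mybpc1: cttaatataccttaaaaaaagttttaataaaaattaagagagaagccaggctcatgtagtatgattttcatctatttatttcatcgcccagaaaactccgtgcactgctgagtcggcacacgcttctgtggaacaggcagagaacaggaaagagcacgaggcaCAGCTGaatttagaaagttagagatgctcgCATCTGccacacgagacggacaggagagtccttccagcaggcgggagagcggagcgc
Tpm3: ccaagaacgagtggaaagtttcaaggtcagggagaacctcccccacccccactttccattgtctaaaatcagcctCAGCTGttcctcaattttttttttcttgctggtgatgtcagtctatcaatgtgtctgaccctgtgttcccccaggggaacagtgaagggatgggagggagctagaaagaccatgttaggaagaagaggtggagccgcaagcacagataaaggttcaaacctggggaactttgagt

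The Acta1 and Myh4 windows held both a CArG box and a CAGCTG, and the Myh4 window also held a MEF2 site, inside which lay 1 of its 3 TATAAA matches. The Ckm, Mybpc1 and Tpm3 windows each held a CAGCTG, which is itself a CANNTG, and the Myh7 window held 1 E-box. For Tpm3 and Myh7 the table holds a second window: that of Tpm3 had a CANNTG but no CAGCTG, and that of Myh7 had 2 E-boxes. No CArG box or MEF2 site was matched in the printed windows of Ckm, Myh7, Mybpc1 and Tpm3. RefSeq windows were at hand for 31 of the 39 genes, 37 windows in all because some genes have several starts. A CArG box was found in 13.5% of these and in 1.47% of all 32851 windows of the genome, and a MEF2 site in 16.2% and 2.92%. CAGCTG was found in 37.8% and 13% of windows, any CANNTG in 83.8% and 66.2%, CATTCC (the core bound by TEAD factors) in 27% and 12.6%, and TATAAA in 21.6% and 12.4%. These are matches of letters in a fixed window and say nothing of binding.

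The 39 genes together took between 0.0369% and 11.7% of all counts in the hSS2 libraries. In hSS2 controls the lowest, median and highest shares were 0.0592%, 1.53% and 11.7%, in Pbrm1-fl 0.0369%, 0.135% and 4.68%, in Arid1a-fl 0.0556%, 0.478% and 3.34%, and in Arid1b-fl 0.0488%, 1.03% and 11.02%. The range within every hSS2 group was far wider than the distance between the group medians, and all 4 groups overlapped. In hSS1 tumors the shares were 0.0449%, 0.173% and 0.721% in controls and 0.0918%, 0.0974% and 0.104% in Pbrm1-fl tumors, all within the range of the hSS2 libraries. The tropomyosins kept a level where the other genes were low, and Mybpc1 did so in some libraries. Together they made up between 3.48% and 96.2% of the members' counts in hSS2 libraries (median 8.30%) and between 12.5% and 97.7% in hSS1 libraries (median 87.75%). Without Tpm1, Tpm2, Tpm3 and Mybpc1, the share of all counts ran from 0.00329% to 11.2% in hSS2 libraries, from 0.00416% to 0.631% in hSS1 controls and from 0.00245% to 0.0290% in hSS1 Pbrm1-fl tumors. The hSS1 and hSS2 tables are separate deposits of different mice, so their levels are set side by side without a test.

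**Figure D1:**
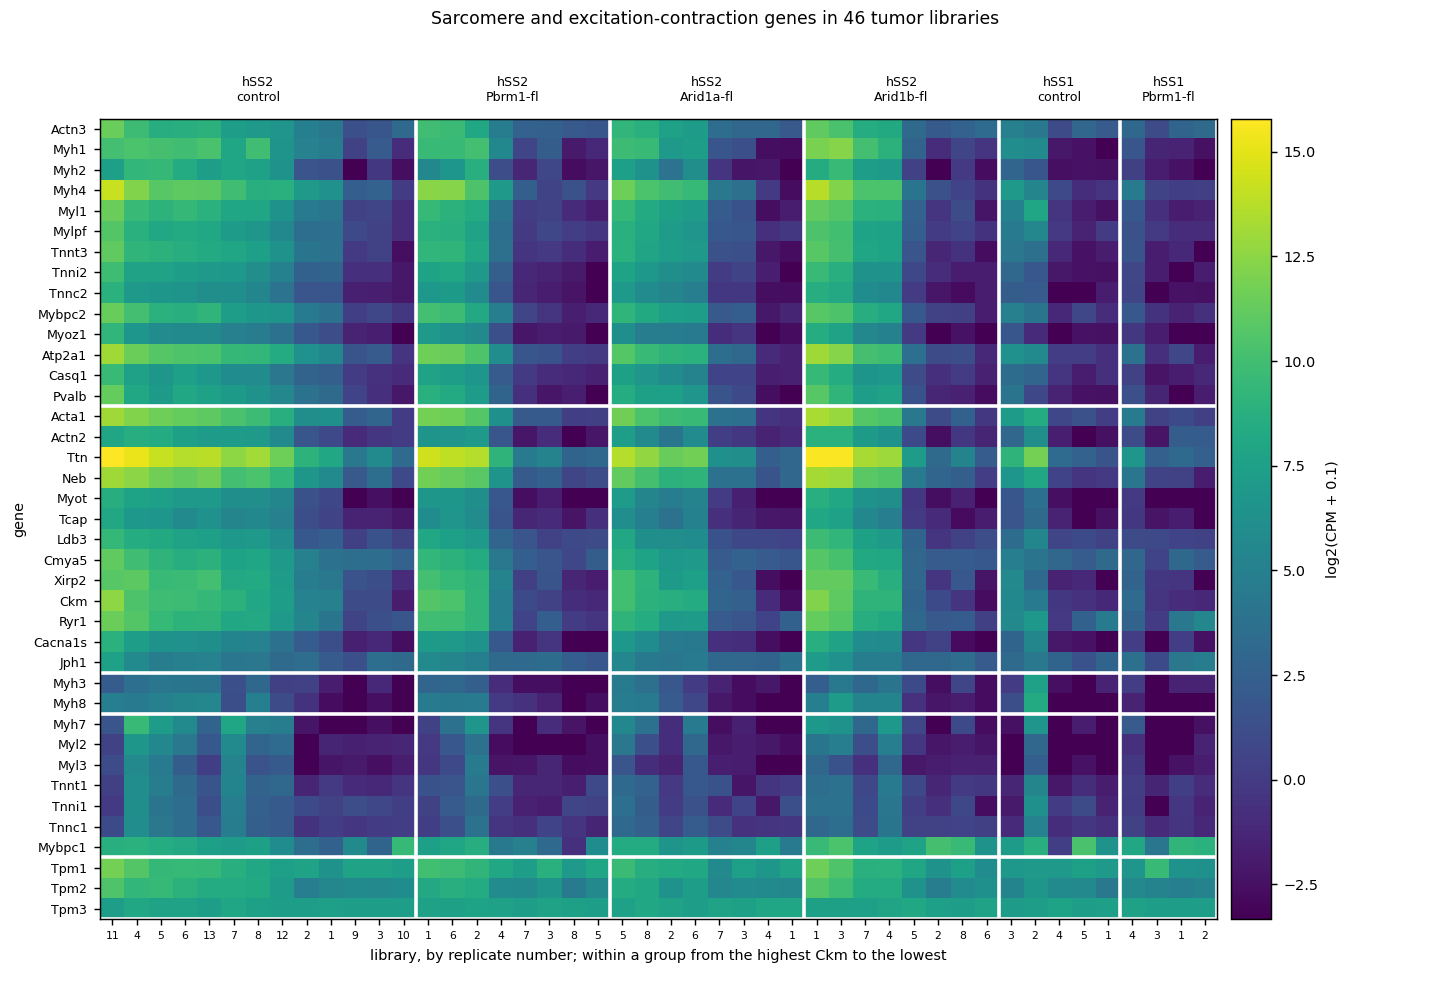
Level of each of the 39 genes (rows, grouped as fast, no isoform class, embryonic or perinatal, slow, and tropomyosins) in each of the 46 libraries (columns, by replicate number, from the highest to the lowest Ckm within a group), as log2 of CPM plus an offset of 0.1. Most rows brighten and darken in the same libraries, whereas the tropomyosins, and Mybpc1 in some libraries, keep a level where the other rows are near their minimum.

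Ckm, which regenerates ATP at the myofibril, gives the scale of this variation. In hSS2 controls its level was 0.193 CPM in the lowest, 289 CPM in the median and 5884 CPM in the highest library. In Pbrm1-fl tumors these values were 0.362, 15.1 and 1632 CPM, in Arid1a-fl tumors 0.0587, 176 and 1027 CPM, and in Arid1b-fl tumors 0.0581, 275 and 4612 CPM. Of the 37 hSS2 libraries, 19 had at least 100 CPM of Ckm, 11 had between 1 and 100 CPM and 7 had less than 1 CPM, and each of the 4 groups had libraries in all of these classes (1 of 13 controls, and 2 of 8 libraries in each floxed group, lay below 1 CPM). No gap set high libraries apart from low ones: ordered by Ckm, neighboring hSS2 libraries were at most 2.24 log2 units apart over a range of 14.98. In the 9 hSS1 libraries Ckm was below 1 CPM in 6 and between 1 and 100 CPM in 3, with 49.1 CPM (control replicate 3) as the highest value.

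**Figure D2:**
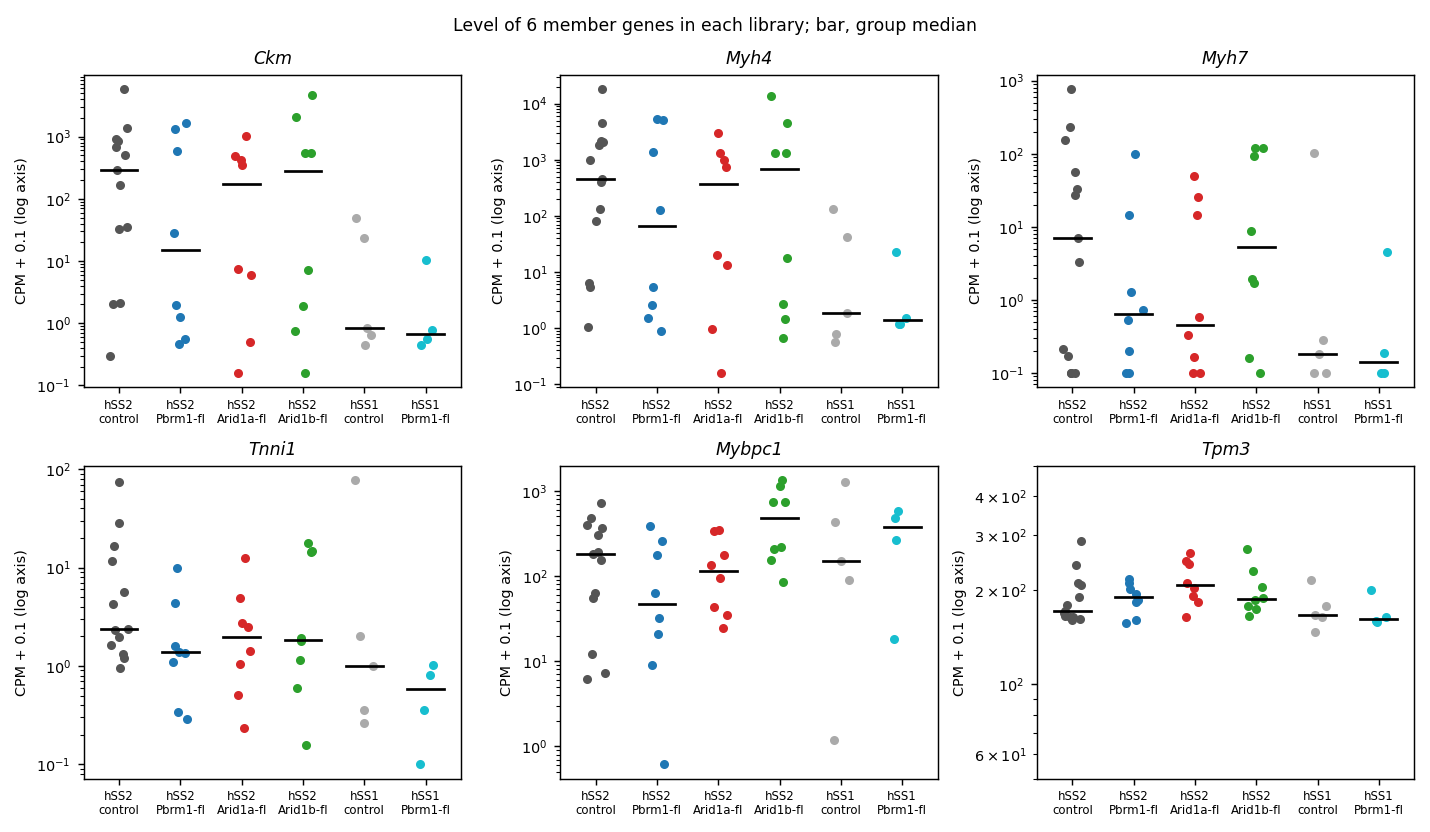
CPM of Ckm, Myh4, Myh7, Tnni1, Mybpc1 and Tpm3 (log axes, 0.1 added) in every library, each point being a tumor and each column a group, with a bar at the group median. Points of every hSS2 group spread over several powers of 10 for Ckm and Myh4, while Tpm3 stays between 157 and 287 CPM in hSS2 tumors.

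Among the thin-filament genes, Acta1, the skeletal alpha-actin that forms the filament itself, had the highest level per kilobase of any of the 39 genes in the hSS2 table. Its lowest, median and highest levels were 0.967, 884.5 and 8683 CPM in controls, 1.08, 39.7 and 3578 CPM in Pbrm1-fl, 0.529, 381 and 3152 CPM in Arid1a-fl and 0.755, 680 and 10703 CPM in Arid1b-fl tumors. The floxed groups thus overlapped the controls over nearly their full ranges. Neb, the nebulin that runs along the thin filament, ran from 1.74 to 8518 CPM in controls and from 0.988 to 9353 CPM in Arid1b-fl tumors. The fast troponins, which make thin filaments sensitive to calcium, behaved alike: Tnnt3 had medians of 172, 7.04, 62.3 and 111 CPM in controls, Pbrm1-fl, Arid1a-fl and Arid1b-fl tumors, and Tnni2 68.1, 2.84, 29.3 and 43.1 CPM. The slow troponins were much lower, with control medians of 3.01 CPM for Tnnt1, 2.29 CPM for Tnni1 and 3.46 CPM for Tnnc1. The tropomyosins, which lie along actin and have forms in most cell types, were never near 0: the lowest hSS2 library had 52.6 CPM of Tpm1, 23.5 CPM of Tpm2 and 157 CPM of Tpm3.

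Of the thick-filament genes, the fast myosin heavy chain Myh4 varied more across the 37 hSS2 libraries than any other gene of the 20083 compared, with an SD of 4.92 log2 units. Its lowest, median and highest levels were 0.967, 449 and 18392 CPM in controls, 0.784, 65.9 and 5271 CPM in Pbrm1-fl, 0.0587, 376 and 3003 CPM in Arid1a-fl and 0.581, 674 and 13939 CPM in Arid1b-fl tumors. Myh4, Ckm, Atp2a1, Myh1, Acta1, Ttn, Xirp2, Tnnt3, Pvalb, Myh2 and Myl1 held the first 11 places of that order, while Tpm3 was in place 17417 with an SD of 0.228. Because the genes were chosen with the large variation of muscle transcripts already known, these high places are no independent finding. The slow myosin Myh7 had control values of 0, 6.86 and 774 CPM, and its medians in Pbrm1-fl, Arid1a-fl and Arid1b-fl tumors were 0.536, 0.352 and 5.23 CPM. Below 1 CPM of Myh7 were 17 of the 37 hSS2 libraries, and only 6 had 100 CPM or more. The developmental myosins were low, with maxima over the hSS2 groups of 25.3 CPM for Myh3 (Arid1a-fl) and 148 CPM for Myh8 (Arid1b-fl). Per kilobase, Myh8, Myl3, Myh7, Myh3 and Myl2 were the lowest 5 of the 39 genes in the hSS2 table.

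Titin (Ttn), the giant spring of the sarcomere, took the most counts of any member by the median over hSS2 controls, with lowest, median and highest levels of 9.99, 6067 and 56765 CPM in hSS2 controls and 6.96, 292 and 21361 CPM in Pbrm1-fl tumors. Together the Z-disc and titin genes made up a median of 37.5% of the members' counts in hSS2 libraries, the thin filament 25.4%, the thick filament 16%, the calcium genes 7.08% and Ckm 1.96%. In hSS1 libraries the thin filament made up 32.5%, the thick filament 22.9%, the calcium genes 4.30%, the Z-disc and titin 4.0% and Ckm 0.0731%, shares in which tropomyosins and Mybpc1 weigh as given above. The alpha-actinins, which cross-link actin at the Z-disc, had control medians of 123 CPM (Actn2, made in all fibers) and 127 CPM (Actn3, fast fibers only). Tcap, which caps titin, had medians of 42.5, 1.73, 7.38 and 15.1 CPM in controls, Pbrm1-fl, Arid1a-fl and Arid1b-fl tumors, and Cmya5, a large protein of the muscle costamere, had 214, 12.8, 60.6 and 140 CPM.

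The calcium genes spread as widely. Atp2a1, the pump that returns calcium to the sarcoplasmic reticulum in fast fibers, was second per kilobase to Acta1 in the hSS2 table, with 0.645, 643 and 8771 CPM as lowest, median and highest in controls and 0.845, 34.1 and 2985 CPM in Pbrm1-fl tumors. Ryr1 had 1.44, 289 and 2898 CPM in controls and 0.664, 17.8 and 955 CPM in Pbrm1-fl tumors. Pvalb, a calcium buffer of fast fibers, ran from 0.129 to 2452 CPM in controls, and Casq1, which stores calcium in the reticulum of fast fibers, from 0.387 to 768 CPM. Jph1, which ties the reticulum to the membrane tubules, covered a narrower range of 2.38 to 201 CPM in controls. In hSS1 libraries Ryr1 was present without much Ckm, at 24.4 CPM in control replicate 1 and 47.1 CPM in Pbrm1-fl replicate 2, where Ckm was 0.339 and 0.34 CPM.

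The fast genes varied together with Ckm across the 37 hSS2 tumors, whereas the slow genes followed less closely and Mybpc1 and Tpm3 least. Spearman's rho with Ckm was 0.996 for Atp2a1, 0.995 for Tnnt3, 0.994 for Myh4, 0.990 for Acta1, 0.982 for Ttn and 0.947 for Ryr1 (Pearson's r for Atp2a1 0.997). It reached at least 0.95 for 19 of the other 38 genes, at least 0.9 for 24 and at least 0.8 for 30. Of 20082 genes, these members among them, 0.209%, 0.777% and 1.86% did so. For 34 genes the permutation p of rho was the smallest that 100000 permutations can give (1e-05, adjusted 1.12e-05). Over the 38 genes the median rho was 0.951. Among the 13 controls alone it was 0.970, and in the 9 hSS1 libraries 0.725. The first principal component of the 500 most variable genes, 34 of them members, held 61.1% of their variance and ranked the libraries almost as the mean member level did (rho of size 0.969). With the members and the 50 other sarcomere genes listed below left out, the first component held 48.4% with a rho of size 0.945. Other close followers of Ckm were not left out: of 156 genes with a rho of at least 0.9, 24 were members, and 34 of the 50 listed genes reached it. All these values come from libraries in which the same few genes take a large part of the counts, and they describe tumors and not cells. The members were chosen knowing that muscle transcripts vary most in these data. Their rho with Ckm, its permutation p, its excess over all genes and their match to the first principal component are therefore no independent findings.

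For slow genes rho with Ckm was 0.782 (Myh7; r = 0.812), 0.769 (Myl2), 0.745 (Myl3), 0.722 (Tnnc1), 0.700 (Tnnt1) and 0.616 (Tnni1; r = 0.675, permutation p of rho adjusted 0.000116). Both Tpm1 and Tpm2 had shallower slopes, of 0.237 (Tpm1) and 0.306 (Tpm2) log2 units per log2 unit of Ckm, with rho of 0.862 and 0.838. Mybpc1, a myosin-binding protein C counted here as slow-type, had a rho of 0.497 (permutation p adjusted over 38 genes 0.00213) and r of 0.461 (0.00396). Leaving out the 2 libraries farthest from the median of Ckm (Arid1a-fl replicate 1 and Arid1b-fl replicate 6) gave r = 0.453, and rho within groups was 0.522 in controls, 0.643 in Pbrm1-fl, 0.691 in Arid1a-fl and 0.476 in Arid1b-fl tumors. For Tpm3 rho was 0.175 (permutation p adjusted 0.298) and r 0.136 (0.421), and 0.251 without those 2 libraries. The genes most like Mybpc1, Tpm3, Myh7 and Myh2 among the members were Tpm2 (rho 0.655), Tnnc1 (0.453), Tnnc1 (0.905) and Actn2 (0.949) over the 37 libraries.

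Between classes, the median rho was 0.975 over the 91 pairs of fast genes, 0.865 over the 15 pairs of slow genes without Mybpc1, 0.739 over the 84 fast-slow pairs, 0.930 between Myh3 and Myh8, and 0.862 over the 28 pairs of a fast and a developmental gene. Mybpc1 had a median rho of 0.548 with the other 6 slow genes and 0.506 with the 14 fast genes. Slow genes were therefore nearer to each other than to fast genes in these libraries, and Mybpc1 was near neither. Some slow genes were often near the floor, with 3 counts or fewer in 13 (Myh7), 12 (Myl2) and 15 (Myl3) of the 37 libraries. Tnnt1, Tnni1 and Tnnc1 were so low in 1, 3 and 0 libraries, and fast Myoz1 in 11. The part of such low counts in these correlations was not tested.

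**Figure D3:**
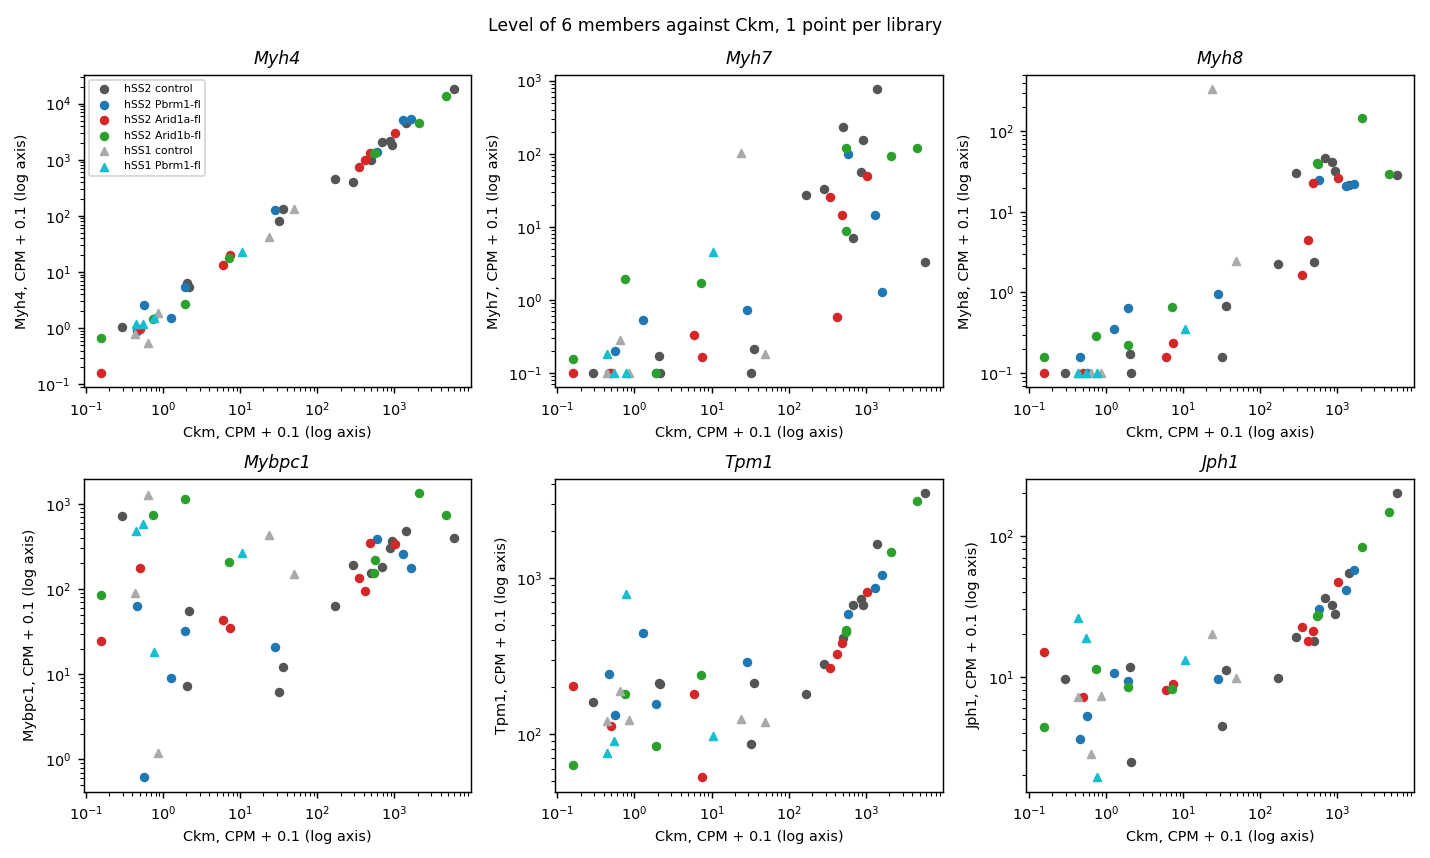
Level of Myh4, Myh7, Myh8, Mybpc1, Tpm1 and Jph1 against Ckm in each library (log axes, CPM with 0.1 added), each point being a tumor colored by group, with triangles for hSS1. Myh4 lies on a line through all groups, Myh7 fans out at high Ckm with 774 CPM at 1397 CPM of Ckm and 3.16 CPM at 5884 CPM, and Mybpc1 has high values at either end of the Ckm range.

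Individual tumors show the same separation. In hSS2 control replicate 4, with 1397 CPM of Ckm, Myh7 was 774 CPM, Tnni1 73.6, Tnnt1 67.7, Tnnc1 65.6, Myl2 111 and Myl3 50.9 CPM, and the highest hSS2 value of 7 members, these 6 slow-type genes and Tpm3, was found in this library. Control replicate 11 had more Ckm (5884 CPM) and the highest level of 20 members, yet only 3.16 CPM of Myh7 and 0.848 CPM of Tnni1. Likewise Pbrm1-fl replicate 1 had 1632 CPM of Ckm with 1.19 CPM of Myh7, and Pbrm1-fl replicate 2 had 586 CPM of Ckm with 100.2 CPM of Myh7. In some libraries the reverse held for Mybpc1, which stood at 719.5 CPM in hSS2 control replicate 10, where Ckm was 0.193 CPM. It was 739 CPM in Arid1b-fl replicate 8 (Ckm 0.653 CPM) and 1273 CPM in hSS1 control replicate 5 (Ckm 0.547 CPM), and it was the highest of the 39 genes per kilobase in the hSS1 table. In others both were low: Mybpc1 was 0.515 CPM in hSS2 Pbrm1-fl replicate 8 (Ckm 0.464 CPM) and 1.09 CPM in hSS1 control replicate 4 (Ckm 0.752 CPM). Whether these transcripts came from muscle fibers or from other cells was not tested.

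Myosin heavy chain composition was computed per kilobase of exon in the 33 libraries with at least 100 counts over the 6 myosin genes. Fast Myh4 was the most abundant in 26 of the 30 hSS2 libraries, with a median share of 68.4% and a range of 18.02% to 93.8%. Its median was 64.1% in controls, 72.7% in Pbrm1-fl, 79.5% in Arid1a-fl and 57.4% in Arid1b-fl tumors, with overlapping ranges. Myh1 was highest in 3, control replicate 8 (59.5%), Pbrm1-fl replicate 3 (58.6%) and Arid1b-fl replicate 3 (47.9%). The remaining library, Arid1b-fl replicate 8, had only 154 myosin counts, shared among Myh3 (23.5%), Myh1 (22.4%), Myh4 (21.4%) and Myh7 (20.1%).

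**Figure D4:**
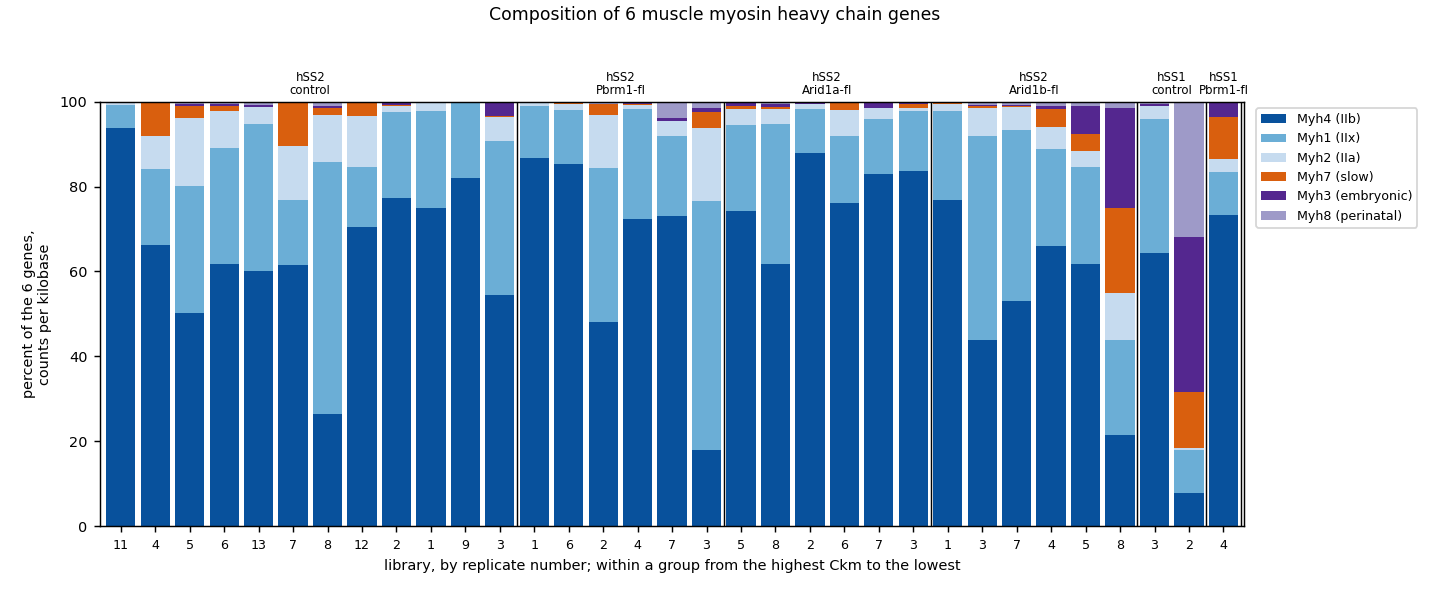
Share of each of 6 myosin heavy chain genes in their sum (percent, counts per kilobase of exon) in each of the 33 libraries with at least 100 myosin counts, each bar being a tumor. Myh4 fills most of nearly every hSS2 bar, and hSS1 control replicate 2 is the bar in which Myh3 and Myh8 are largest.

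Only 3 hSS1 libraries had 100 myosin counts, and hSS1 control replicate 2 differed from both others in its isoforms. Of its 9808 myosin counts, scaled per kilobase, 36.5% were Myh3, 31.9% Myh8, 13.1% Myh7, 9.98% Myh1 and 7.87% Myh4, so that the embryonic and perinatal myosins held 68.5% together. In control replicate 3, with 2580 counts, Myh4 held 64.4% and Myh1 31.5%, and in Pbrm1-fl replicate 4, with 387 counts, Myh4 held 73.3%. By coding length in place of exon length Myh8 (45.3%) and not Myh3 (26.95%) was the largest in control replicate 2. This tumor also had 244 CPM of Myl1, 77.7 CPM of Tnni1, 115 CPM of Ryr1 and 42.9 CPM of Cacna1s, but only 23.6 CPM of Ckm. Some genes of forming muscle outside the 39 were read there too, with 20.9 CPM of Myog (a myogenic factor), 9.28 CPM of Mymk (myoblast fusion), 13.3 CPM of Chrng (the fetal acetylcholine receptor subunit) and 47.9 CPM of Actc1 (fetal actin). They were picked from longer lists. The list of 11 myogenic and satellite cell genes summed to between 192.7 and 395.9 CPM over the 5 hSS1 controls. Whether such genes set this tumor apart was not tested. In control replicate 3 Ckm was 49.1 and Myh4 131 CPM, against 0.892 CPM of Myh3 and 2.35 CPM of Myh8. Some myosins share sequence that a read can match in both: of 100-base stretches, 9.24% in Myh1, 7.8% in Myh2, 7.71% in Myh7, 3.85% in Myh4, 3.38% in Myh8 and 1.13% in Myh3 recur in another gene, while 31 of the 39 genes share none, and the values of these myosins, of Myl1 (4.45%, with Mylf-ps) and of Tpm3 (15.8%, with Tpm3-rs7) are uncertain to that extent.

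Further genes of muscle and of other cells were read from fixed lists. Of 50 other sarcomere genes 34 had a rho with Ckm of at least 0.9, with a median of 0.919. Neuromuscular junction genes had a median of 0.815 (0.166 to 0.894) and myogenic genes 0.781 (−0.380 to 0.926). The 13 non-muscle paralogs of the contractile genes did not follow Ckm, with a median rho of −0.0937 and none at 0.9, although they were abundant: Actb ran from 1481 to 4885 CPM and Myh9 from 281 to 1596 CPM. Markers of other cells moved with Ckm in part, with median rho of 0.728 for adipocyte, 0.659 for Schwann cell, 0.591 for macrophage, 0.556 for tendon, 0.535 for cardiac, 0.344 for smooth muscle, 0.0653 for erythrocyte and −0.471 for endothelial genes. Genes within a list could differ widely. Their rho ran from −0.211 to 0.812 for Schwann cell, −0.284 to 0.872 for tendon, −0.12 to 0.925 for cardiac and 0.166 to 0.946 for smooth muscle genes. The ranges were narrower for adipocyte (0.389 to 0.836) and macrophage genes (0.441 to 0.769). The summed adipocyte markers had a lowest, median and highest level of 52.7, 89.9 and 441 CPM in controls, 59.4, 90.7 and 358 CPM in Pbrm1-fl, 44.5, 53.8 and 77.7 CPM in Arid1a-fl and 45.9, 87.4 and 162 CPM in Arid1b-fl tumors, and of the defining markers Adipoq was at 0 in 6 and Lep in 19 of the 37 libraries. The part of these cells in the levels of the sarcomere genes was not tested.

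In order to ask whether loss of a remodeler subunit went with a change of muscle transcripts, each floxed group was compared with the controls of the same fusion by edgeR over all genes. In no comparison did any of the 39 genes pass an adjusted p of 0.05, and in none were the groups of any member without overlap (background 0.284% of genes in Pbrm1-fl, 0.0299% in Arid1a-fl, 0.0% in Arid1b-fl, 1.95% between Pbrm1-fl and Arid1a-fl, and 6.82% in hSS1). The 3 hSS2 comparisons share the 13 controls and are not independent. Nor are the members, most of which rose and fell together across tumors. Counts of members with the same sign, given below beside the share of all genes, are therefore not counts of separate observations. The standard errors were large, with a median over members of 1.40 log2 units in Pbrm1-fl against 0.217 over all genes, so that changes of several-fold in single genes were within the spread between tumors.

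In hSS2 Pbrm1-fl tumors 0 of 39 genes were called, by edgeR and by DESeq2, where 7.35% and 8.78% of all genes were called. At an unadjusted p of 0.05 there were 3, against a background of 22.4%. All 39 fitted changes were below 0 (50.5% of all genes were), with a median of −0.93 against 0.00 over all genes. The smallest p were those of slow-type genes: the thin-filament inhibitor Tnni1 (log2 fold change −2.22, SE 0.958, adjusted p = 0.158), the calcium sensor Tnnc1 (−1.997, SE 0.903, 0.180) and the light chain Myl2 (−3.08, SE 1.44, 0.194). Behind them, Tnni1 had 0.848, 2.29 and 73.6 CPM as lowest, median and highest in controls and 0.187, 1.28 and 9.90 CPM in Pbrm1-fl tumors, so the ranges overlapped. Ckm differed by −0.88 (SE 1.55, adjusted p = 0.782), Myh4 by −0.67 (SE 1.59, 0.844) and Tpm3 by −0.01 (SE 0.105, 0.974). Without Pbrm1-fl replicate 2 Tnnc1 was called (−3.46, adjusted p = 0.0267), and without control replicate 11 the median was −0.43. With only the 4 controls in the same range of mouse numbers, the median was −0.08 and 24 of 39 values were below 0.

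In Arid1a-fl tumors 0 of 39 genes were called by edgeR (3.17% of all genes) and 2 had an unadjusted p under 0.05 (23.0% of all genes). DESeq2 called 1, the slow light chain Myl3 (−3.27, adjusted p = 0.0468), where it called 7.6% of all genes. Fitted changes were below 0 for 38 of 39 genes (55.1% of all genes), with a median of −1.47 against −0.04, which was −2.24 without Arid1a-fl replicate 5 and −0.76 without control replicate 11. In edgeR the change of Myl3 was −3.26 (SE 1.36, adjusted p = 0.146), with control levels of 0, 2.004 and 50.9 CPM as lowest, median and highest and Arid1a-fl levels of 0, 0.233 and 3.80 CPM. Tnnc1 differed by −1.82 (adjusted p = 0.217), Tnni1 by −1.90 (0.220), Myh7 by −3.14 (0.257) and Ckm by −1.53 (SE 1.6, 0.578). The only positive value was that of Tpm3, 0.16 (SE 0.105, adjusted p = 0.366).

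In Arid1b-fl tumors 0 of 39 genes were called by edgeR or by DESeq2, and 0 had an unadjusted p under 0.05, against backgrounds of 0.0548%, 0.0603% and 6.22% of all genes. Values were above 0 for 32 of 39 genes (50.9% of all genes), with a median of 0.24. Mybpc1 had 84.9, 478 and 1336 CPM as lowest, median and highest in Arid1b-fl tumors and 6.11, 180.2 and 719.5 CPM in controls, with overlapping ranges, and its fitted change was 1.37 (SE 0.767, adjusted p = 0.801). Ckm differed by 0.24 (SE 1.497, adjusted p = 0.996). Without Arid1b-fl replicate 1 the median over the members was −0.55, and without Arid1b-fl replicate 3 it was −0.11, so its sign rested on these libraries.

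Set against each other, hSS2 Pbrm1-fl and Arid1a-fl tumors had 0 of 39 genes called by edgeR and by DESeq2 (12.3% and 12.6% of all genes) and 0 at an unadjusted p of 0.05 (26.8%). The median fitted change was 0.41, with 33 of 39 values above 0 (51.8% of all genes), and it was −0.04 without Pbrm1-fl replicate 1. The group medians went the other way: the members' share of all counts had a median of 0.135% in Pbrm1-fl and 0.478% in Arid1a-fl tumors. Only the highest share was larger in Pbrm1-fl (4.68%) than in Arid1a-fl tumors (3.34%), so the sign of the fit does not describe the typical tumor. With controls of the same range of mouse numbers only, the medians were −1.69 in Arid1a-fl, 0.40 in Arid1b-fl and 1.56 between Pbrm1-fl and Arid1a-fl tumors. By class, medians in Pbrm1-fl, Arid1a-fl and Arid1b-fl tumors were −0.89, −1.40 and 0.32 for the 14 fast genes and −1.997, −2.06 and −0.98 for the 7 slow genes. The 50 other sarcomere genes had medians of −1.06, −1.47 and 0.25, and 0 of them were called in any of these comparisons.

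**Figure D5:**
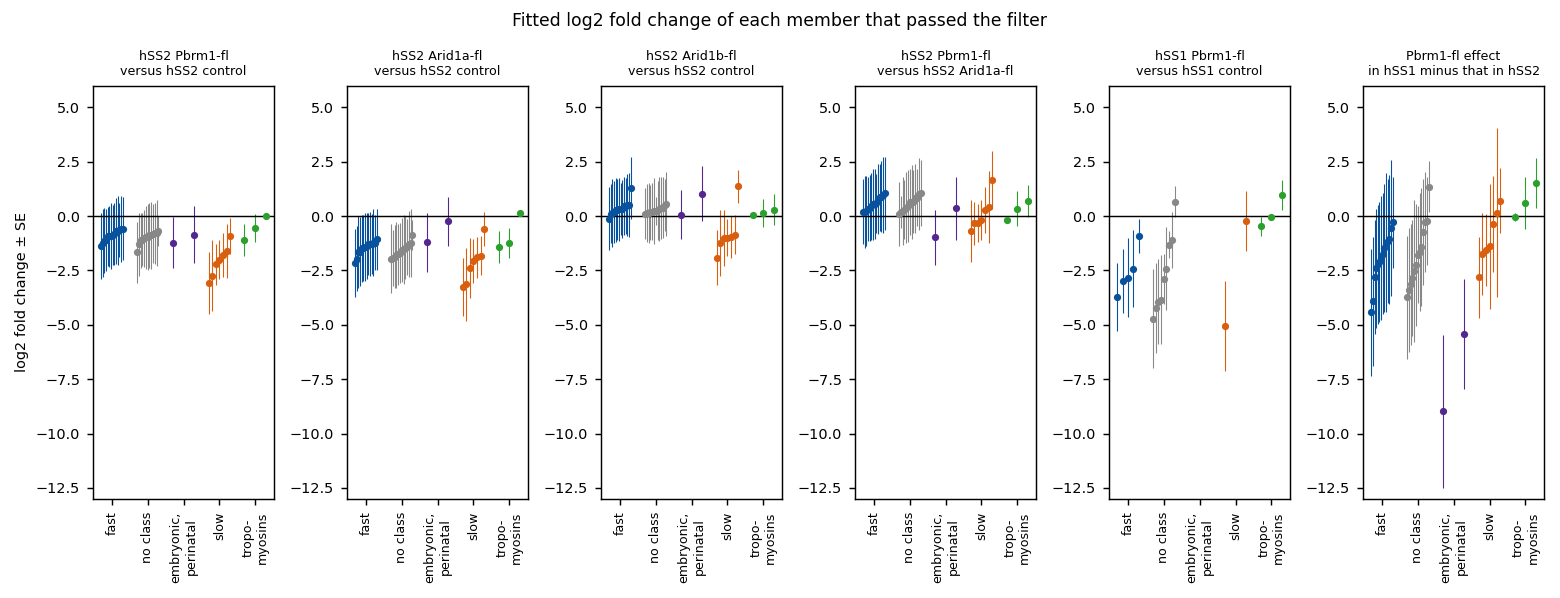
Fitted log2 fold change from edgeR (points) and a standard error derived from its F statistic (vertical bars) of each gene that passed the filter, in 6 panels for the 5 comparisons of groups and the interaction, colored by isoform class. Points lie below 0 for 39 genes in Pbrm1-fl and 38 in Arid1a-fl hSS2 tumors, and the bars are longest in the interaction panel, where Myh8 (−8.96) is lowest.

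In the 4 hSS1 Pbrm1-fl tumors Ckm did not exceed 10.4 CPM, although Mybpc1 ran from 18.05 to 573 CPM and Tpm1 reached 785 CPM in replicate 3. The 5 controls included replicates 2 and 3 described above. Acta1 was 1.018, 2.64 and 346 CPM as lowest, median and highest in controls and 1.11, 1.57 and 21.7 CPM in Pbrm1-fl tumors, and Ttn 3.05, 10.1 and 3546 CPM and 5.62, 7.51 and 105 CPM. Medians were thus close and the difference lay in the highest controls. Only 19 of the 39 genes passed the filter on low counts, of which 0 were called and 3 had an unadjusted p under 0.05 (backgrounds 0.00562% and 17.2%). With no filter all 39 were fitted, 0 were called (0.00291%) and 7 had an unadjusted p under 0.05 (11.9%). The changes with the smallest p were in Ldb3, a Z-disc scaffold (−2.89, SE 1.16, adjusted p = 0.255), Tnni1 (−5.05, SE 2.09, 0.265) and the fast light chain Mylpf (−3.71, SE 1.56, 0.272). DESeq2 called 2 genes where it called 6.27% of all genes, Mylpf (−3.71, adjusted p = 0.0460) and Myl1 (−5.60, adjusted p = 0.0448). With no filter the median over the 39 genes was −2.85, against −0.05 over all genes. Without control replicate 2 only 15 members passed the filter, and their median was −0.73.

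Whether floxed Pbrm1 went with a different change in hSS1 than in hSS2 tumors was tested as an interaction over both tables. Again 0 of 39 genes passed in edgeR (2.86% of all genes), 34 fitted differences were below 0 (48.8% of all genes), and 2 had an unadjusted p under 0.05 (18.9%): the perinatal myosin Myh8 (difference of log2 fold changes −8.96, SE 3.52, adjusted p = 0.149) and the embryonic myosin Myh3 (−5.40, SE 2.53, 0.234). DESeq2 called Myh8 (−9.22, adjusted p = 0.0271), among 4.85% of all genes. Myh8 had 0 CPM in the median of both hSS1 groups, with 337 CPM in hSS1 control replicate 2 and 0.255 CPM as the highest Pbrm1-fl value, so the fitted size depends on the prior count and on that library. Without it the median interaction over the members was −0.69 rather than −1.66.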

How the data were processed

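Ribosomal RNA-depleted, stranded libraries were made from frozen tumor tissue and sequenced in read pairs. The authors deposited raw counts per gene, not normalized, in an hSS2 table of 37 libraries and an hSS1 table of 9. The submitters' processing notes name STAR 2.7.11, featureCounts 1.6.3 and mm10. Groups came from the labels, and replicate numbers only name samples. Each library is a different mouse. The members and lists were chosen with earlier results of these data known.

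The tests used edgeR 4.0.16 under R 4.3.3 (quasi-likelihood test, filterByExpr, TMM scaling, robust dispersions) in one fit per table and a joint fit of the 46 libraries for the interaction. The SE printed with an edgeR change is the size of that change divided by the square root of its F statistic. P-values were two-sided and Benjamini-Hochberg adjusted over all genes tested, with a threshold of 0.05. The study's methods name DESeq2, which was run (1.42.0) as an alternative. Levels are CPM scaled by TMM factors over all 46 libraries, and correlations used their log2 values with a prior count of 2. Correlations had 100000 permutations, adjusted over 38 genes. Gene symbols and exon lengths came from GENCODE M21, which matched 91.5% and 91.3% of identifiers. The minimum of 100 myosin counts was chosen after seeing the data. All members could be named, and of the other lists those past the threshold or highest. The test was checked on counts simulated with the same small dispersion for every gene. That check does not cover genes that vary between tumors as widely as most members did. Python 3.11.15, NumPy 2.4.6, pandas 2.3.3, SciPy 1.17.1 and matplotlib 3.10.9 were used. Among 178 pairs of libraries within groups none were alike within counting noise. P-values measure the spread between tumors.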

Additional observations from a re-analysis of the deposited data

Results flagged for a closer look

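Each of the 39 genes was examined for a library far from the others in its group (gap to the nearest library against the range of the group, both in log2 CPM), which was possible in groups of 4 to 10 libraries. Of 195 pairs of a gene and a group, 15 had a library that stood apart, all in hSS1 tumors. Chance would give about 1 in 20 if the genes varied separately, but most members rose and fell together. Of the 15, 7 came from hSS1 Pbrm1-fl replicate 4 and 6 from hSS1 control replicate 2, so they are not separate observations.

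Among hSS1 controls, replicate 2 stood apart in 6 genes, 5 of them slow-type: Myh3 (199 CPM, next highest 0.892), Myh7 (102, next 0.182), Myl2 (7.77, next 0), Myl3 (5.13, next 0.0911), Tnnt1 (40.8, next 0.456) and Tnnc1 (36.1, next 0.729). Replicate 5 stood apart in Tpm1, at 188 CPM against 124 in the next library.

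Among hSS1 Pbrm1-fl tumors, replicate 4 stood apart in 7 genes: Acta1 (21.7 CPM, next highest 1.88), Myh4 (22.7, next 1.45), Myh7 (4.41, next 0.0851), Tnnc2 (1.53, next 0.0897), Myot (0.849, next 0), Myh8 (0.255, next 0) and Tpm3 (201, next 164). The Myh8 value is 3 counts, the level that a library with no read could still hold, and so cannot be told from the others. Replicate 3 stood apart in Tpm1, with 785 CPM where the others had 75.6 to 97.5 CPM, and it had low values of Acta1 and Ckm like the remaining tumors of its group. The causes of these differences were not tested.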

How the results depend on the processing

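In edgeR the count of members called was 0 in all 6 comparisons under every scaling (TMM, DESeq2 size factors, total counts, TMM without muscle genes), without the filter and without robust dispersions, and the medians kept their sign under these. DESeq2 called 1 member in Arid1a-fl, 2 in hSS1 and 1 in the interaction (Myl3 −3.27, adjusted p = 0.0468, and Myh8 −9.22, adjusted p = 0.0271, among them). Leaving out 1 library moved the median over members from −1.47 (without Pbrm1-fl replicate 1) to −0.43 (without control replicate 11) in hSS2 Pbrm1-fl, from −2.24 (without Arid1a-fl replicate 5) to −0.76 (without control replicate 11) in Arid1a-fl, from −0.55 (without Arid1b-fl replicate 1) to 0.95 (without control replicate 11) in Arid1b-fl, from −0.035 (without Pbrm1-fl replicate 1) to 1.23 between Pbrm1-fl and Arid1a-fl, from −3.04 (without Pbrm1-fl replicate 4) to −0.73 (without control replicate 2, 15 members tested) in hSS1 and from −3.47 to −0.69 (without hSS1 control replicate 2) in the interaction. Counts stayed at 0 except for 1, Tnnc1 (−3.46, adjusted p = 0.0267), without hSS2 Pbrm1-fl replicate 2. The change of Ckm turned to 0.29 in Pbrm1-fl with controls of the same mouse number range, ran from −1.565 (without Pbrm1-fl replicate 1) to 0.11 (without control replicate 11) with 1 library left out, from −0.88 and −0.04 (without Arid1b-fl replicates 1 and 3) to 1.253 (without control replicate 11) in Arid1b-fl, and from −0.059 (without Pbrm1-fl replicate 1) to 1.312 (without Arid1a-fl replicate 5) between Pbrm1-fl and Arid1a-fl. The median over members with controls of the same range was −1.17 in hSS1 and −2.54 in the interaction. With only the Arid1b-fl tumors below the control range of Arid1b, chosen after seeing the data, 0 members were called and the median was 0.64. The median rho with Ckm was 0.725 in the 9 hSS1 libraries. The cause of these shifts was not tested. Against the spread between tumors (SD of their mean level within groups 3.08 log2 units), groups of 4 to 13 could not resolve changes of several-fold, and low slow-type genes rest on few counts. No paired analysis was possible because the labels give each mouse a number of its own and no replicate numbers shared between groups. The study used littermates as controls, but the labels tie no mouse number to a litter.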

Other observations

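Other genes of contraction, of the motor endplate and of other cells were read from the fixed lists in the same edgeR fits. Few passed the test, their directions differed, and several calls rested on 1 library. In hSS2 Pbrm1-fl tumors Ckb, the brain-type creatine kinase and a paralog of Ckm made outside muscle, was higher (log2 fold change 0.87, adjusted p = 0.00809) and was called in all 21 fits that left out 1 library. Cnn1, a calponin of smooth muscle, was lower (−2.85, adjusted p = 0.0325), in 13 of 21 such fits (adjusted p = 0.0676 without Pbrm1-fl replicate 4). In Arid1a-fl tumors Chrnb1, a subunit of the muscle acetylcholine receptor, was lower (−1.21, 0.0156, called in 20 of 21 fits, 0.0557 without Arid1a-fl replicate 8), as was the lipase Pnpla2 (−0.93, 0.0277, 17 of 21 fits, 0.0873 without that replicate).

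Of the 8 cardiac genes the ryanodine receptor Ryr2 was called in Arid1a-fl tumors (1.56, adjusted p = 0.0405; 15 of 21 fits). This rested on replicate 8, with 329.8 CPM where the other Arid1a-fl tumors had 13.8 to 89.2 CPM and the controls 6.93 to 53.4 CPM, and without it the change was 0.68 (adjusted p = 0.305). Of the 8 smooth muscle genes the actin Actg2 was called in Arid1b-fl tumors (4.87, adjusted p = 0.0424; 8 of 21 fits). It was at 55.9 CPM in replicate 5 and at 0.0628 to 0.907 CPM in the others, within the control range of 0 to 1.30 CPM, and without replicate 5 the change was 0.39 (adjusted p = 0.999). The same replicate had 47900 CPM over the 6 erythrocyte genes, whose group medians were 60.1 CPM in Arid1b-fl and 83.1 CPM in control tumors. Of these genes 0 were called by edgeR, and 6 had an unadjusted p under 0.05 (6.22% of all genes) with a median of 4.22, which turned to −2.88 without replicate 5.

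Directly between hSS2 Pbrm1-fl and Arid1a-fl tumors, Pnpla2 was higher in Pbrm1-fl (1.019, adjusted p = 0.00563) and the tendon gene Tnmd was higher in Arid1a-fl tumors (−3.22, 0.0150), both in all 16 fits that left out 1 library. Ckb (0.70, 0.0467), Ache (1.00, 0.0344) and Chrnb1 (0.91, 0.0269) were higher in Pbrm1-fl and the non-muscle myosin Myh10 (−0.48, 0.0463) higher in Arid1a-fl tumors, but these were called in 3, 9, 9 and 5 of the 16 fits. For Ryr2 (−1.63, 0.0241) the change was −0.75 (adjusted p = 0.248) without Arid1a-fl replicate 8.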
